A study of Mus musculus with 9 samples.

Results

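The Ms4a genes encode a family of small membrane proteins that cross the membrane several times, and its best known members are CD20 of B cells and the beta chain of the high-affinity IgE receptor of mast cells. Several members are made by macrophages, where the proteins sit beside other receptors and can change how those signal. Their genes form a cluster on mouse chromosome 19, and copies that arose by duplication, such as Ms4a6b, Ms4a6c and Ms4a6d, lie near each other. The members described here were 7 genes picked by symbol: Ms4a4a, Ms4a4c, Ms4a6b, Ms4a6c, Ms4a6d, Ms4a7 and Ms4a8a. Of these, 6 were among the 13593 genes of the count table, all 6 passed the filter on low counts, and the level of Ms4a8a was not analysed here.

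The cells were mouse bone marrow-derived macrophages, grown from marrow of wild-type C57BL/6 animals aged 6 weeks for 7 days with 15% medium from L929 cells, which release the macrophage growth factor CSF-1. They received CCL26, CX3CL1 or, as the protein control, bovine serum albumin (BSA), each at 4 nM for 4 h, with 3 RNA-seq libraries per group. The series title calls both chemokines ligands of the receptor CX3CR1. No label states that libraries of a group stem from different animals or cultures. The p-values therefore rest on the spread between libraries alone, which may be technical.

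Libraries held 16923982 to 23198324 counts. CX3CL1 replicate 1 stood apart: it had no count for 1193 genes, against 80 to 170 genes in each other library. Its level differed from the mean of the other 8 libraries by a median size of 0.75 on the log2 scale over the 12915 genes tested, against 0.11 to 0.16 in those 8. Results are therefore given with all 9 libraries and with the 8 without it. Of 16 macrophage markers, all 16 were in the table, and their summed level was 29881 to 30146 CPM (counts scaled to library size, with TMM factors) with CCL26, 33911 to 50335 CPM with CX3CL1 and 35693 to 36326 CPM with BSA. The Ms4a genes that mark other marrow cells, Ms4a1 of B cells, Ms4a2 of mast cells and Ms4a3 of granulocyte precursors, were not among the genes of the table. Other markers of these cells were. For granulocyte precursors, 12 of 15 markers summed to 109 to 111 CPM with CCL26, 101 to 203 CPM with CX3CL1 and 95.6 to 101 CPM with BSA, and in the 8 libraries S100a9 (0.35) and S100a8 (0.34) were called higher with CCL26 than with BSA. For B cells, 4 of 10 summed to 98.04 to 106 CPM with CCL26, 102 to 214 CPM with CX3CL1 and 102 to 110 CPM with BSA, and Cd79b (-0.36) was called lower. For mast cells, 3 of 12 summed to 2.82 to 4.94 CPM with CCL26, 1.33 to 2.32 CPM with CX3CL1 and 1.89 to 2.05 CPM with BSA. Of the 2 tested in the 8 libraries, Kit (1.26) was called higher, at means of 3.06 CPM with CCL26 and 1.28 CPM with BSA. The part of these cells in the Ms4a levels was not tested. In each of these sums, that of the macrophage markers included, the highest CX3CL1 value came from CX3CL1 replicate 1. The macrophage marker Lyz2 alone averaged 18342 CPM with CCL26 and 23489 CPM with BSA.

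From the outer end of Ms4a8a to that of Ms4a6d, the members spanned 537379 bp (base pairs) of GRCm38, by the GENCODE M21 annotation. Ms4a7 (chr19:11321039-11336146) and Ms4a6d (chr19:11586604-11604849) are on the minus strand. Ms4a4a (chr19:11375523-11392790), Ms4a4c (chr19:11404770-11427246), Ms4a6c (chr19:11469366-11482192) and Ms4a6b (chr19:11516512-11531256) are on the plus strand. Ms4a8a (chr19:11067471-11081102, minus strand) lies apart from the rest. The other Ms4a genes of the table were Ms4a14, 6584 bp from Ms4a7, and Ms4a4b, 2310 bp from Ms4a6c.

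Promoters are shown because CCL26 raised interferon-stimulated genes in these cells and several Ms4a members carry a short form of the motif that interferon-response factors read. RefSeq gave a promoter of 300 bases (250 before the start site and 50 after it, GRCm38.p6) for 6 of the 7 members, with none for Ms4a6d and 2 start sites for Ms4a7. The RefSeq start sites of Ms4a6b and Ms4a4c, and 1 of the 2 of Ms4a7, lie inside the GENCODE genes whose coordinates are given above. The interferon motif GAAANNGAA, searched on both strands, was in 8.56% of 32851 RefSeq promoters and in those of Ms4a6b, Ms4a6c and Ms4a7, at both start sites of Ms4a7. Its longer form, with a further A at the end, was in none of these members and in 3.44% of all promoters. The motif TTCNNNGAA, bound by STAT dimers, was in none of the members and in 8.30% of all promoters. The ETS core GGAAGT, which holds the letters GGAA read by the macrophage factor PU.1, was in 23.8% of all promoters and in those of Ms4a4c, Ms4a6b, Ms4a6c and, at 1 of its start sites, Ms4a7.

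The 250 bases before the RefSeq start sites of Ms4a6b (chr19:11518309-11518558, plus strand) and Ms4a6c (chr19:11469118-11469367, plus strand) are printed 5′ to 3′. Capitals mark the 3 runs of 10 or more bases that they share.
Ms4a6b: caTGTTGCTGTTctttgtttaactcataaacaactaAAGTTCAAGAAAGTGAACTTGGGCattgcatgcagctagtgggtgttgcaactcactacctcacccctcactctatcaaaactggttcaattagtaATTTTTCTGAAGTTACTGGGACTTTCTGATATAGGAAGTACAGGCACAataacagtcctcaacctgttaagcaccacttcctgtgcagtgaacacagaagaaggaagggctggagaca
Ms4a6c: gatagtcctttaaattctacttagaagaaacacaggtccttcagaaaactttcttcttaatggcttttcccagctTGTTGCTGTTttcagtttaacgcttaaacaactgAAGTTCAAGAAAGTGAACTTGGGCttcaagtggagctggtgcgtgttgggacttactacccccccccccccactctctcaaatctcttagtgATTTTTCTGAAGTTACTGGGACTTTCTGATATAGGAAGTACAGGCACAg
The longest shared run has 48 bases and holds GGAAGT. It ends 71 bases before the start site in Ms4a6b and 2 bases before it in Ms4a6c. A run of 24 bases holds the shorter interferon motif as GAAAGTGAA in both. Aligned over the 300 bases, the 2 promoters were 52.3% identical. Ms4a4c and Ms4a6b, for which no long shared run was found, came to 53.6%. The share over the 300 bases therefore does not set Ms4a6b and Ms4a6c apart.

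Ms4a4c and its neighbour Ms4a4b, which is not among the members, shared 6 such runs, in capitals, with the longest at 20 bases, and were 73.8% identical. Their bases come from chr19:11407411-11407660 and chr19:11443308-11443557, both on the plus strand.
Ms4a4c: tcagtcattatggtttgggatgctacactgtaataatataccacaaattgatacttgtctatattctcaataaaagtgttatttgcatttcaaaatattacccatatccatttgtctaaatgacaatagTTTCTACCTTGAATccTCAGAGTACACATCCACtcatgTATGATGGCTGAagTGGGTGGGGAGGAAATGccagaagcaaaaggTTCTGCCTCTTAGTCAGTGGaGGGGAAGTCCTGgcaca
Ms4a4b: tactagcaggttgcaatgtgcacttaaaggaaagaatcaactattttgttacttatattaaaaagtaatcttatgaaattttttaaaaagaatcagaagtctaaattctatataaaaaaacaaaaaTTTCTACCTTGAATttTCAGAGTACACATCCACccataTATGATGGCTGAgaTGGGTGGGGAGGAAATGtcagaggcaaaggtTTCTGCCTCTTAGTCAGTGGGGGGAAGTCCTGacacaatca
For the upstream start site of Ms4a7 (chr19:11336147-11336396, minus strand), capitals mark the shorter interferon motif and GGAAGT, both read on the opposite strand.
Ms4a7: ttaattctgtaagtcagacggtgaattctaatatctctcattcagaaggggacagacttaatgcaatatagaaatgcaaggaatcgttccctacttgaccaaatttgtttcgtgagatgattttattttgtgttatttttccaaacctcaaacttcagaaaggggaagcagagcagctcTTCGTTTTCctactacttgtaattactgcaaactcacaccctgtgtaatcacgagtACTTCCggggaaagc

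Across the 8 libraries, the members spanned a wide range of levels. Divided by exon length, Ms4a6d was highest at 143 ± 8.86 CPM per kb (SD, n = 8), above 97.7% of the 12905 genes with a length. In mouse macrophages its protein is known to partner the complement receptor VSIG4. Ms4a7, which marks marrow-derived macrophages in the mouse brain, followed at 71.2 ± 1.87 CPM per kb, Ms4a6c at 44.7 ± 2.25 and Ms4a6b at 23.5 ± 1.54. Ms4a4a, whose protein binds dectin-1 in mouse macrophages, reached 11.99 ± 1.14 CPM per kb and Ms4a4c 1.25 ± 0.399.

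No neighbours in this order of 6 overlapped over the 8 libraries. The place of Ms4a6c in it is uncertain, as BE692007, a transcript on the opposite strand, covers 53.1% of its exons. In CX3CL1 replicate 1, Ms4a6c and Ms4a6b came to 26.3 and 26.0 CPM per kb, nearly level. Ms4a14 (18.8 ± 1.61 CPM per kb) overlapped Ms4a6b. Ms4a4b, a T cell gene, was at 0.0912 ± 0.0456 CPM per kb, below every member. Before division by length, Ms4a7 had more CPM than Ms4a6d, with exons of 4453 bp against 1735 bp.

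**Figure D1:**
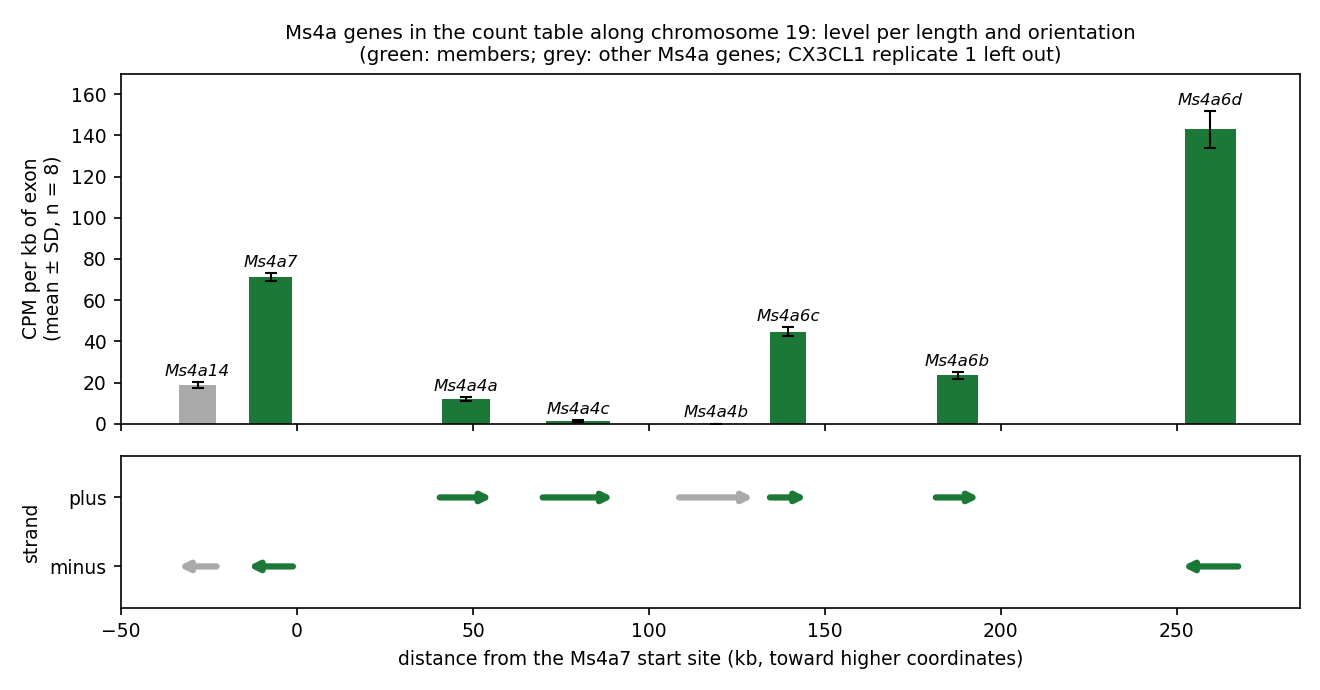
Level per exon length (upper panel, CPM per kb, bars are means and whiskers SD over the 8 libraries without CX3CL1 replicate 1) and transcription direction (lower panel, arrows) of the Ms4a genes of the table, against distance in kb from the Ms4a7 start site. Green genes are the members and grey ones Ms4a14 and Ms4a4b. Ms4a6d, at 143 CPM per kb, stands at one end of the row and Ms4a4c and Ms4a4b, the lowest, lie in its middle.

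Ms4a6d was lower with CCL26 than with BSA. Its level was 236, 239 and 226 CPM in the CCL26 libraries, 275, 250 and 239 CPM in the CX3CL1 libraries and 262, 265 and 266 CPM in the BSA libraries. Every CCL26 library lay below every BSA library, and the 2 CX3CL1 libraries other than replicate 1 lay below the BSA libraries too. In the 8 libraries the log2 fold change, CCL26 over BSA, was -0.18 (SE 0.0425, edgeR adjusted p = 0.00361). The level fell by 11.6% with CCL26, with a 95% interval of -16.8% to -6.07%. With all 9 libraries the log2 fold change was also -0.18, but with an SE of 0.101 and an adjusted p of 0.963. The call held with a further library left out in each of 8 fits (adjusted p from 0.00271 to 0.0222), and in the 6 CCL26 and BSA libraries alone (adjusted p = 0.00304).

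Beside this difference, 3 measures of the libraries moved. Genes of at least 50 CPM with exons of 1500 to 2500 bp, like Ms4a6d, had a median log2 fold change of -0.10 (375 genes, quartiles -0.18 and 0.01), and 34.7% of them were called lower. Over genes, the rank correlation of a library's deviation with exon length was 0.254, 0.262 and -0.0103 in CCL26 libraries and -0.131, -0.117 and -0.230 in BSA libraries. In the same order, Ms4a6d read 236, 239 and 226 CPM in the CCL26 libraries and 262, 265 and 266 CPM in the BSA libraries. Of the 16 macrophage markers, 10 fell and 1 rose with CCL26 in the 8 libraries, beside 9.26% of all genes called lower and 9.74% called higher. Among genes of at least 50 CPM, 16.0% to 46.1% were called lower, by length class. The median of the markers was -0.16, against 0.01 over all genes. The lysozyme gene Lyz2 fell by 0.35. The part of these shifts in the Ms4a6d difference was not tested, and in bulk RNA fewer cells of a type and less RNA per cell cannot be told apart.

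**Figure D2:**
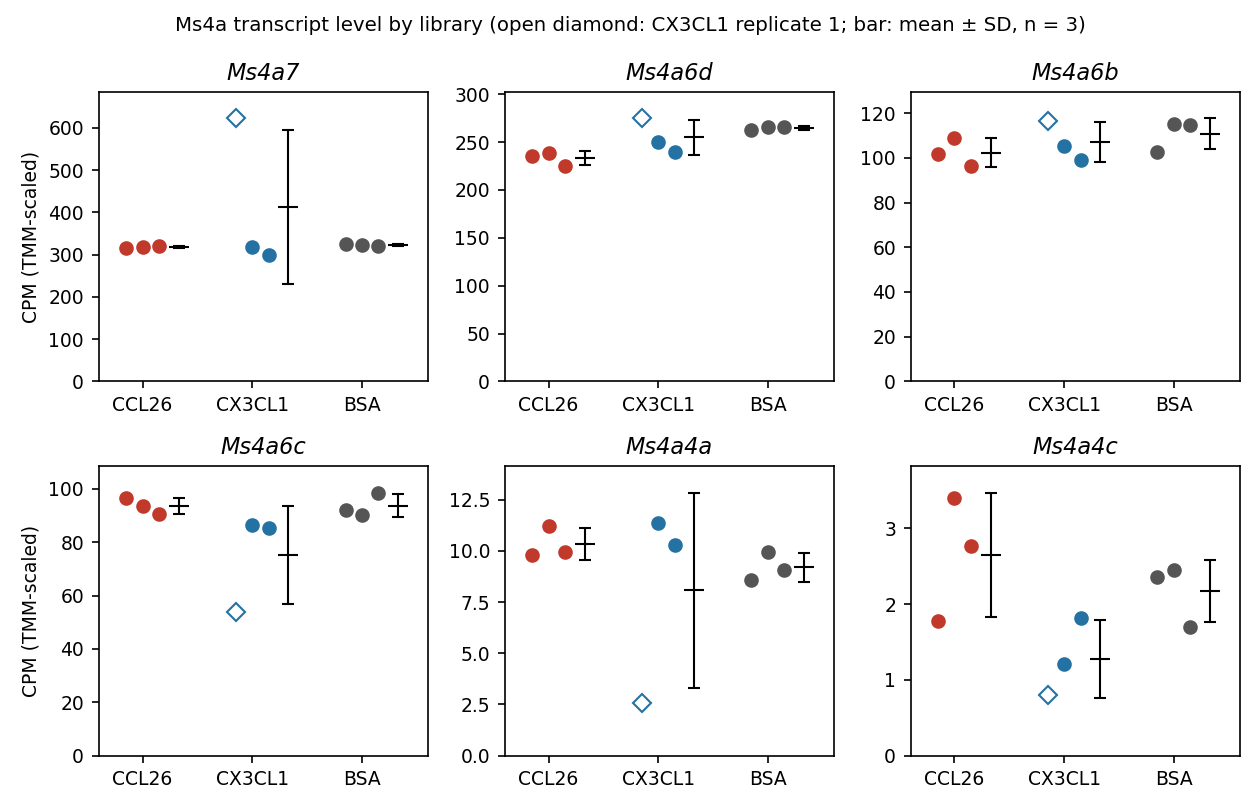
Level of each member in CPM (vertical axis, from 0) by library for CCL26, CX3CL1 and BSA. Points are libraries, the open diamond is CX3CL1 replicate 1, and the bars beside them give mean ± SD (n = 3). The 3 CCL26 points of Ms4a6d lie at 226 to 239 CPM, below the 3 BSA points at 262 to 266 CPM.

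Among the 6 members, Ms4a6d was the 1 called in CCL26 against BSA in the 8 libraries, beside 19% of 13245 genes called in either direction and 9.26% called lower. A share of 1 in 6 is near that background. With all 9 libraries 0 of 6 members were called, against 0.434% of 12915 genes (6.13% at an unadjusted p under 0.05, 0 of 6 members). The CCL26 and BSA libraries did not overlap for 2 of 6 members, Ms4a6d and Ms4a7, beside 33.1% of genes tested in 9 libraries and 32.7% in 8, which is a like share. The median log2 fold change of the 6 was -0.01, beside 0.01 over all genes.

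Ms4a7 differed little. It read 315, 319 and 320 CPM with CCL26, 623, 318 and 298 CPM with CX3CL1 and 324, 323 and 321 CPM with BSA. The CCL26 libraries lay just below the BSA libraries, by 1.27% on average in the 8 libraries, with a 95% interval of -6.72% to 4.49% (log2 fold change -0.02, SE 0.0397, edgeR adjusted p = 0.815). Across the 8 libraries its coefficient of variation was 2.62%, smaller than in all but 0.689% of genes tested. The median was 12.2% over those genes and 6.57% over the 4107 of at least 50 CPM.

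Ms4a6b read 102, 109 and 96.1 CPM with CCL26, 117, 105 and 99.1 CPM with CX3CL1 and 103, 115 and 115 CPM with BSA. The groups overlapped, and the log2 fold change for CCL26 over BSA was -0.11 (SE 0.0616, 95% interval -15.3% to 1.08%, edgeR adjusted p = 0.234) in the 8 libraries. Ms4a6b had 3.57% of its 50-base stretches in other genes, most of them Ms4a6c, but no 150-base stretch.

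Ms4a6c read 96.8, 93.5 and 90.6 CPM with CCL26, 53.9, 86.6 and 85.2 CPM with CX3CL1 and 92.2, 90.3 and 98.6 CPM with BSA. CCL26 and BSA overlapped throughout (in the 8 libraries, log2 fold change 0.00, SE 0.0589, 95% interval -7.88% to 9.02%), while every CX3CL1 library lay below both. This gene is uncertain. BE692007, a non-coding transcript on the opposite strand, covers 53.1% of its exons and was counted on its own, with 283, 315 and 282 counts with CCL26, 118, 202 and 259 with CX3CL1 and 249, 215 and 215 with BSA. No source used here states whether counting took strand into account, so reads of the 2 genes cannot be told apart.

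Ms4a4a read 9.81, 11.2 and 9.93 CPM with CCL26, 2.58, 11.3 and 10.3 CPM with CX3CL1 and 8.57, 9.94 and 9.06 CPM with BSA. In the 8 libraries the log2 fold change for CCL26 over BSA was 0.17 (SE 0.147, 95% interval -8.76% to 38.9%, edgeR adjusted p = 0.487), and with all 9 the SE was 0.427 and the interval -42.5% to 119%. Ms4a4c had 40, 71 and 51 counts with CCL26, 12, 21 and 43 with CX3CL1 and 46, 48 and 30 with BSA, too few for a firm estimate. Its log2 fold change for CCL26 over BSA was 0.29 in both fits, with a 95% interval of -24.7% to 97.2% in 8 libraries and -34.1% to 126% in 9. About 8.19% of its 50-base stretches occur elsewhere, mostly in Ms4a4b.

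CX3CL1 against BSA gave no call among the members in either fit, 0 of 6, with 0% of 12915 genes called in 9 libraries and 0.332% of 13245 in 8. At an unadjusted p under 0.05, 3.14% of genes and 0 of 6 members passed in 9 libraries. The groups did not overlap for 1 of 6 members, Ms4a6c, beside 11.7% of genes. In 8 libraries this count was 4 of 6, Ms4a4a, Ms4a6c, Ms4a6d and Ms4a7, beside 25.8% of genes. With 2 CX3CL1 libraries in that fit, groups separate easily. Ms4a4a lay above BSA and the other members named lay below it. The 95% intervals of Ms4a4a, Ms4a6c and Ms4a7 included 0. In the 8 libraries Ms4a6d had the smallest p of the members, with a log2 fold change of -0.11 (SE 0.0476, 95% interval -13.5% to -0.915%, edgeR adjusted p = 0.602). Ms4a6c (-0.13), Ms4a6b (-0.12) and Ms4a7 (-0.07) read below BSA and Ms4a4a (0.23) above it, none past the threshold. Ms4a4c had the largest difference, -0.50 (SE 0.394, edgeR adjusted p = 0.832), and -0.75 (SE 0.404, adjusted p = 0.711) in 9 libraries, also not past it.

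**Figure D3:**
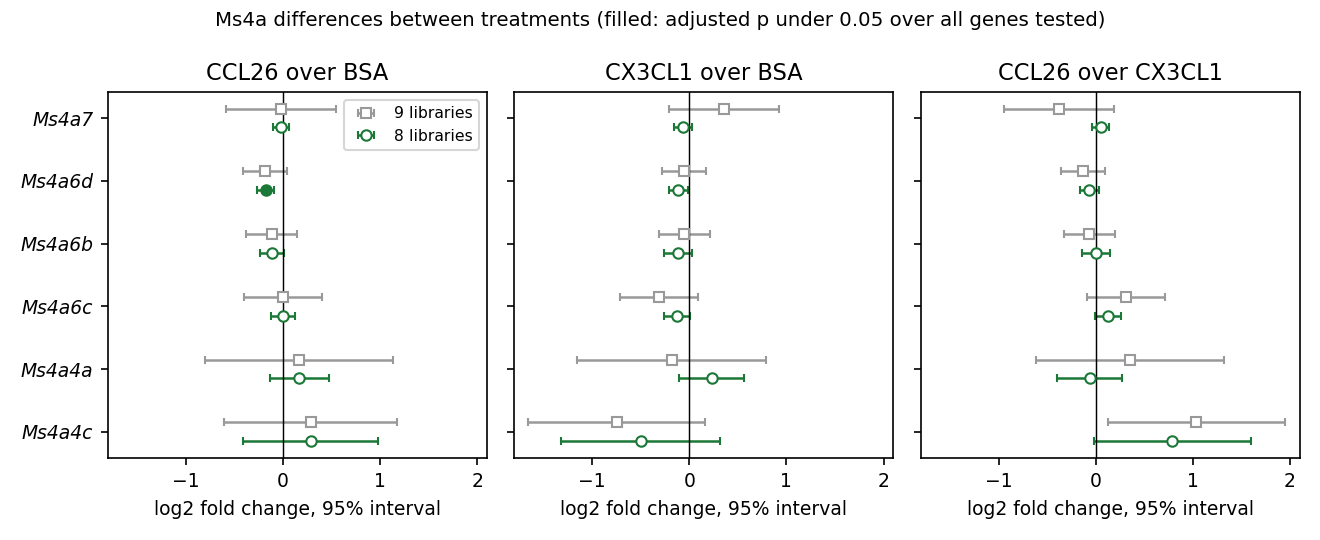
Log2 fold change (horizontal axis) with its 95% interval for each member in 3 comparisons, from edgeR fits of 9 libraries (grey squares) and of 8 (green circles). Filled symbols have an adjusted p under 0.05 over all genes tested. The filled symbol is Ms4a6d in CCL26 over BSA, at -0.18, and the 9-library intervals are wider in each panel.

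CCL26 against CX3CL1 also gave 0 of 6 members in both fits, where 0.41% of genes were called in 9 libraries and 10.1% in 8. Ms4a4c differed most, with means of 2.65 ± 0.823 CPM with CCL26 and 1.28 ± 0.514 CPM with CX3CL1 (SD, n = 3 each). Its log2 fold change was 1.03 (SE 0.402, edgeR adjusted p = 0.423) in 9 libraries and 0.79 (SE 0.391, adjusted p = 0.241) in 8. At an unadjusted p under 0.05 it was the 1 member that passed in 9 libraries, where 11.5% of genes did. CCL26 libraries 2 and 3 read higher than every CX3CL1 library, while CCL26 replicate 1, at 1.77 CPM, lay below CX3CL1 replicate 3, at 1.82 CPM. The groups did not overlap for 2 of 6 members, Ms4a6d and Ms4a6c, beside 22.6% of genes in 9 libraries and 36.8% in 8. Both comparisons with CCL26 share its libraries, and both with BSA share the BSA libraries.

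Tested over the 3 groups together in 9 libraries, 0 of 6 members were called, beside 0.441% of genes, and Ms4a4c had the smallest p (adjusted p = 0.649). In the 8 libraries Ms4a6d was called (adjusted p = 0.0117), beside 16.3% of genes.

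CX3CL1 replicate 1 set the members apart from each other. Over the mean of the other 8 libraries, Ms4a7 read 1.96-fold, Ms4a6d 1.11-fold and Ms4a6b 1.11-fold, while Ms4a6c read 0.588-fold, Ms4a4c 0.364-fold and Ms4a4a 0.258-fold. The sum of the 6 members was 1071 CPM there, against 734 to 811 CPM elsewhere, and Ms4a7 made up 58.1% of it, against 39.6% to 43.0%. In that library short genes were high and long ones low. The median log2 ratio was 1.40 for genes of at most 1500 bp and -0.78 for those over 6000 bp. Ms4a4a, at 836 bp, was low (-1.77) and Ms4a7, at 4453 bp, was high (0.97). Ms4a4c (1751 bp, -1.05), Ms4a6c (2050 bp, -0.76) and Ms4a6d (1735 bp, 0.15) lay below the lower quartile of genes of 1500 to 2500 bp, 0.29. Ms4a6b (4485 bp, 0.14) lay within the quartiles of its length class, -0.74 and 0.31.

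**Figure D4:**
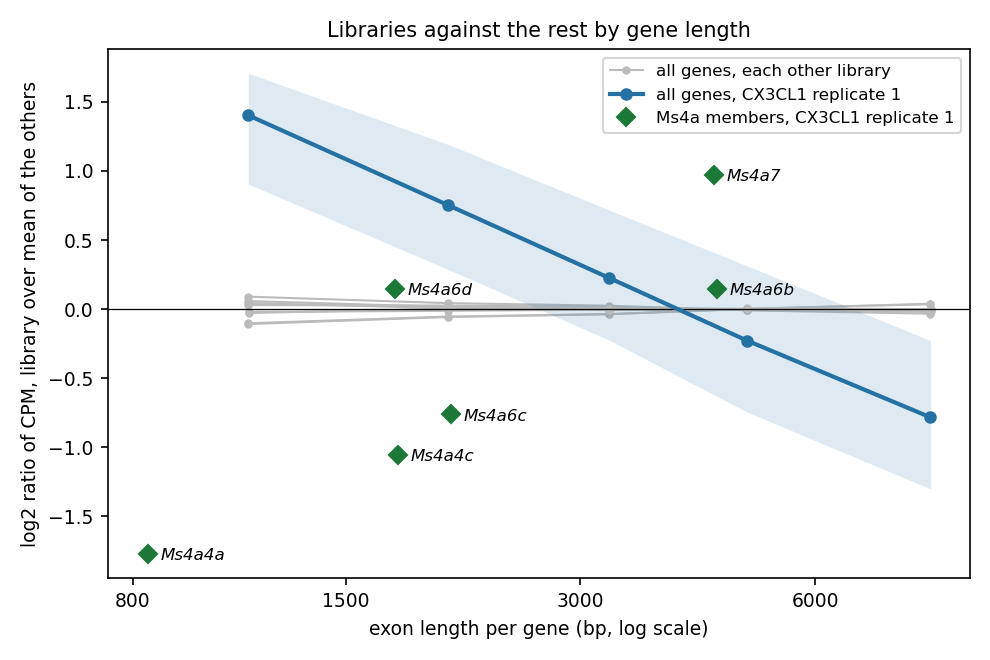
Log2 ratio of CPM in a library over the mean of the others (vertical axis) against exon length in bp (log scale). Blue is the median of all genes by length class in CX3CL1 replicate 1, with its quartiles shaded, grey lines are each other library, and green diamonds are the members in CX3CL1 replicate 1. Ms4a4a (-1.77), Ms4a4c (-1.05), Ms4a6c (-0.76) and Ms4a6d (0.15) lie below the shaded band, Ms4a7 (0.97) above it and Ms4a6b (0.14) within it.

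Genes with the pattern nearest to a member's were sought among those of at least 10 CPM, by Pearson correlation of log2 CPM over the 9 libraries. For Ms4a7, the member with the highest CPM, these were Nop53 (0.998), Cdc37 (0.996), Bcl7c (0.996), Rpl18 (0.996) and Cox6a1 (0.996), and without CX3CL1 replicate 1 their values were 0.825, 0.669, 0.619, 0.651 and 0.611. For Ms4a4c they were Myo1g (0.937), Zwilch (0.930), Asb7 (0.908), Med16 (0.901) and Ptger2 (0.896), and without that library 0.881, 0.865, 0.816, 0.802 and 0.793. The genes named were the highest of 8118 for Ms4a7 and of 8119 for Ms4a4c. Over 9 libraries, picking the top of so many genes can give high values by chance. The values without CX3CL1 replicate 1 use libraries that also served to pick the genes, so they are no separate check. Whether the likeness goes beyond chance was not tested. Among the 15 pairs of members, Ms4a4a and Ms4a6c had the highest correlation in 9 libraries, at 0.921, but ran at -0.468 in 8. Ms4a6b and Ms4a6d ran at 0.828 in 9 libraries and, the highest there, at 0.770 in 8. Ms4a7 and Ms4a4a ran at -0.980 in 9 libraries and -0.306 in 8. These points share libraries and depth.

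Gene groups with which the family is linked were read in the same fits. Of 58 interferon-stimulated genes tested in 8 libraries, 49 rose and 1 fell with CCL26 against BSA (median log2 fold change 1.01), with Rsad2, which makes an antiviral nucleotide, at 2.33 and Cxcl10, a CXCR3 chemokine, at 3.48. In 9 libraries 19 of 57 rose and 0 fell. The Ms4a members with the shorter interferon motif read 0.00 (Ms4a6c), -0.11 (Ms4a6b) and -0.02 (Ms4a7) in the 8 libraries.

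Glucocorticoids and IL-10 are known to raise MS4A4A in human macrophages. Of 21 genes of that response, 3 rose and 7 fell with CCL26 in 8 libraries, beside 9.74% of all genes called higher and 9.26% called lower, and 0 were called in 9. Their median log2 fold change was -0.07, beside 0.01 over all genes. Among genes of at least 50 CPM, 16.0% to 46.1% were called lower in the 8 libraries, by length class. Il10ra, a chain of the IL-10 receptor, fell to 197 CPM with CCL26, against 249 CPM with BSA (-0.34, SE 0.0493, edgeR adjusted p = 1.48e-05), and Sgk1, a kinase, rose by 0.47. Of 20 genes of alternative activation, a state in which Ms4a4a and Ms4a8a have been described, 3 rose and 5 fell in the same fit (median 0.04). Myc read 0.89, the mannose receptor Mrc1 -0.29 and the scavenger receptor Cd36 -0.29, all called. In 9 libraries 1 of 19 was called, Myc, which rose.

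Among 21 genes around TREM2 and dectin-1, receptors tied to MS4A4A in humans and to Ms4a4a in mice, 3 rose and 6 fell in the 8 libraries, beside the same shares of all genes, with the kinase Syk at 0.32 and the protease Ctsb at -0.19. Of 16 genes of Fc receptor signalling, the setting of the IgE receptor beta chain, 5 rose and 3 fell, beside those same shares. Vav1 read 0.34 and the receptor chains Fcer1g -0.25 and Fcgr3 -0.34. Of 11 genes of store-operated calcium entry, a process CD20 affects, 1 rose and 2 fell, with Stim1 at -0.17 and Orai2 at 0.20. With 19% of all genes called in that fit, 3 of 11 for calcium entry is near the background. Among genes of at least 50 CPM, 16.0% to 46.1% were called lower, by length class. The share over all genes may therefore be too low a background here. None of these lists had a call in 9 libraries. The median log2 fold changes of these 3 lists were -0.02, -0.01 and 0.10, beside 0.01 over all genes.

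Of the 4 related genes of the table that are not members, 2 were lower with CCL26 than with BSA in the 8 libraries, Tmem176a and Tmem176b, membrane protein genes on chromosome 6, beside 9.26% of all genes. Among genes of at least 50 CPM in their length classes, 31.7% (Tmem176a) and 34.7% (Tmem176b) were called lower. The 2 genes overlap each other on opposite strands. Tmem176b averaged 311 ± 9.002 CPM with CCL26 and 358 ± 5.79 CPM with BSA (SD, n = 3 each; log2 fold change -0.20, SE 0.0394, edgeR adjusted p = 0.000575), and Tmem176a read -0.17 (adjusted p = 0.014). Ms4a14 read 0.16 (SE 0.0727, adjusted p = 0.133) and Ms4a4b -0.49 (SE 0.631, adjusted p = 0.668). None of the 4 was called in 9 libraries. Of the 39 tested genes within 1 Mb of the cluster, 4 rose and 4 fell with CCL26 in the 8 libraries and 0 were called in 9. This is near the 19% of all genes called. Slc15a3, a transporter of histidine and small peptides, rose by 0.37 and Tmem109 fell by 0.26.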

How the data were processed

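Raw counts per gene, deposited by the authors as 1 table, were used as whole numbers. STAR, featureCounts and MultiQC, and the builds GRCm38 and mm10, are named in the submitters' processing notes without versions. Per the file headers, columns end as STAR's gene count output does, and strand use is not given there or in the labels. Columns were matched to libraries by the code in the labels. Per the labels' protocols, libraries were made with the NEBNext Ultra II kit and read as 150 bp pairs.

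All 9 libraries, filtered with filterByExpr by group and scaled by TMM, entered 1 fit with group as the term. The quasi-likelihood F test of edgeR 4.0.16, in R 4.3.3, was run on 12915 genes, with Benjamini-Hochberg adjustment over all of them and a threshold of 0.05. The fit without CX3CL1 replicate 1 tested 13245. SE is the size of the log2 fold change over the square root of F. Exon lengths come from GENCODE M21. Chi-square per degree of freedom between replicates was 284 and 336 for pairs with CX3CL1 replicate 1 and 3.91 to 8.65 otherwise, so no library was counted as a repeat. The scripts were tested on simulated counts.

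Members and gene lists were chosen with earlier results of these data known. Named genes are the members, other Ms4a genes, Tmem176a and Tmem176b, up to 4 genes of smallest p per list, the 5 most alike in pattern and neighbours within 1 Mb. Alternatives were DESeq2 1.42.0, limma 3.58.1 (voom), other scalings and filters, a replicate block, 6 libraries and leaving out libraries. Leaving out CX3CL1 replicate 1 with a further library, and DESeq2 without it, were added after seeing the data.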

Additional observations from a re-analysis of the deposited data

How the results depend on the processing

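Ms4a6d kept its direction in CCL26 against BSA under every alternative run (log2 fold change -0.20 to -0.15), and was past the threshold in those without CX3CL1 replicate 1. Members called numbered 1 with the 6 libraries of CCL26 and BSA and 0 to 1 over fits that left out libraries. Genes called in CCL26 against BSA numbered 56, and 248 with DESeq2, 2417 with the 6 libraries and 9 to 2734 leaving out libraries. For CCL26 against CX3CL1 they numbered 53, and 251 with DESeq2, 4 with the 6 libraries and 10 to 1720 leaving out libraries. For CX3CL1 against BSA they numbered 0, and 0 to 187 leaving out libraries. Over the 3 groups they numbered 57, and 9 to 2482 leaving out libraries.

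Deviations of same-numbered libraries correlated at -0.107 to 0.0796, beside -0.116 to 0.122 for different numbers. Whether the numbers pair libraries cannot be told from this, as CX3CL1 replicate 1 largely sets the deviations of its group. With the replicate number as a block, genes called were 14 for CCL26 against BSA, 11 for CCL26 against CX3CL1 and 16 for the 3 groups, and members called stayed at 0. Ms4a6c in CCL26 against BSA, near 0, changed sign with the block (0.0027) and limma-voom (0.00014), and ran from -0.027 to 0.040 leaving out libraries. Signs also turned leaving out libraries for CX3CL1 against BSA in Ms4a4a (-0.50 to 0.30), Ms4a6b (-0.17 to 0.0015) and Ms4a7 (-0.11 to 0.54), and for CCL26 against CX3CL1 in Ms4a4a (-0.13 to 0.67), Ms4a6b (-0.12 to 0.048) and Ms4a7 (-0.56 to 0.096). DESeq2 without CX3CL1 replicate 1 called 2564, 87 and 1483 genes for CCL26 against BSA, CX3CL1 against BSA and CCL26 against CX3CL1, and 1 member, Ms4a6d. It turned Ms4a4a (0.23) and Ms4a7 (-0.069) for CX3CL1 against BSA and Ms4a4a (-0.064), Ms4a6b (0.00056) and Ms4a7 (0.046) for CCL26 against CX3CL1. The cause was not tested. With the longest transcript as length, Ms4a6d, Ms4a7 and Ms4a6c came to 175, 87.9 and 49.8 CPM per kb. With 12 to 71 counts per library, depth limits Ms4a4c.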
